A study of Mus musculus with 30 samples.

Results

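Dendritic cells that lack Rubcn changed a small set of transcripts within 30 min of contact with ovalbumin protein (OVA), and the 3 largest rises among genes at 5 CPM or more were in Cxcl2, Acod1 and Tnf. Mouse bone marrow cells had been differentiated over 6 to 7 days with 200 ng/ml of FLT3L, a growth factor that drives progenitors toward plasmacytoid and conventional dendritic cells. The comparison took 3 libraries of Rubcn knockout (KO) cells given OVA protein for 30 min and 3 libraries of untreated KO cells, 6 of the 30 RNA sequencing libraries in the series, and all 14808 genes tested of 25611 in the count table. The members are libraries named by their labels, so no measured value chose them. All 6 libraries carry the Rubcn deletion, and no mouse strain, age or pooling, and no dose or source of OVA, is given in the labels. Wild-type (WT) cells, untreated or given OVA for 30 min, and KO cells given OVA for 4 h (3 libraries each) are used for comparison.

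Rubcn encodes Rubicon, a protein needed for LC3-associated phagocytosis, in which part of the autophagy machinery attaches LC3 to the membrane of a phagosome. Ovalbumin is a soluble model antigen that dendritic cells take up, process and load onto MHC molecules, and peptides from such outside antigen reach MHC class I by cross-presentation. Engagement of pattern-recognition receptors on these cells releases NF-kB and MAP kinase signalling within minutes, which switches on short, inducible genes before any new protein is needed, among them the genes of their own inhibitors.

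Total counts were 46.4, 42.8 and 9.73 M in OVA replicates 1, 2 and 3 and 45.0, 45.4 and 47.0 M in untreated replicates 1, 2 and 3. OVA replicate 3 was thus the shallowest, and 486 of the tested genes had no count in it, against 167 to 195 in the other 5. In a principal component analysis of these 6 libraries, the first component (44.5% of the variance) placed OVA replicate 3 at 43.4 and the others at -12.8 to -1. The second (20.9%) placed OVA replicate 2 at -29.7 and the others at 0.288 to 9.78. Counts and named calls that are lost without an OVA library are therefore given with that loss. Losses without an untreated library are not given gene by gene. Of 67 genes named by rule, 15, 11 and 13 lost the call without untreated replicates 1, 2 and 3. Levels are in CPM, the usual scaling of a gene's count to its library's TMM-adjusted total, which does not correct for gene length. They are therefore compared between libraries and not between genes.

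Reads of the targeted gene were still counted in KO cells, at a lower level than in WT cells. Rubcn (Entrez 100502698, mm10 chr16:32821702-32868366, minus strand) stood at 74.7, 74.7 and 73.0 CPM with OVA and at 70.4, 72.2 and 75.8 CPM untreated, a log2 fold change of 0.03 (SE 0.0489, adjusted p = 0.843). In untreated WT cells it stood at 95.6, 96.6 and 105 CPM, above every KO library, and untreated KO cells were lower by a log2 difference of -0.44 (SE 0.0472, adjusted p = 1.69e-07). In WT cells the gene fell with OVA by 0.18 on the log2 scale (SE 0.0469, adjusted p = 0.0132), and the difference between the genotypes' responses was 0.21 (SE 0.0678, unadjusted p = 0.00513, adjusted p = 0.894). Gene counts do not show which exons the reads came from.

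Dendritic cell markers of the labelled culture were present in all 6 libraries. Flt3, the FLT3L receptor, ranged from 542 to 548 CPM with OVA and from 547 to 564 CPM untreated. Siglech, a plasmacytoid dendritic cell gene, ranged from 554 to 653 against 647 to 713 CPM, and Clec9a, a gene of type 1 conventional dendritic cells, from 112 to 131 against 115 to 118 CPM. Of 17 plasmacytoid markers 1 was called, Spib (307, 279 and 310 against 374, 349 and 357 CPM, log2 -0.27, SE 0.0639, adjusted p = 0.0122, or 0.124 without OVA replicate 2), and the summed level of the 17 ran from 4560 to 5120 with OVA against 5200 to 5390 CPM untreated. The 13 type 1 markers summed to 5520 to 5800 against 5830 to 5990 CPM. Neither pair of ranges overlapped, while those of type 2 conventional dendritic cells (3200 to 3320 against 3280 to 3490 CPM), monocytes or macrophages (4270 to 4510 against 4280 to 5140), neutrophils (192 to 214 against 173 to 211), basophils (752 to 787 against 740 to 767), B cells (53.3 to 58.7 against 55.5 to 58.0), erythroid cells (30.4 to 36.2 against 31.2 to 34.4) and stroma (2720 to 3490 against 2570 to 3380) did. Among all single genes tested, the 2 groups did not overlap for 22.2%, and Irf8 is counted in both the plasmacytoid and the type 1 sums. None of the 13 type 1 markers was called, where 3.77% of all genes were. In bulk RNA, fewer cells of a type and less RNA per cell cannot be told apart. Summed T-cell markers were 66.4 to 76.3 against 79.0 to 85.8 CPM, with Cd28 called lower (46.3, 34.2 and 43.1 against 56.9, 47.1 and 48.7 CPM, adjusted p = 0.0255, or 0.352 without OVA replicate 2) and Cd3e, which defines T cells, at 0 to 0.0875 with OVA against 0.021 to 0.124 CPM. Among 13 endothelial genes Flt1 was called higher (0.306, 0.678 and 0.676 against 0.189, 0.166 and 0.120 CPM), a call lost without OVA replicate 2 (adjusted p = 0.333) or 3 (0.0692), and the haemoglobin genes Hba-a1 and Hbb-bs had no count in any of the 6 libraries.

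Across all genes, 558 were called with edgeR's quasi-likelihood F test at a Benjamini-Hochberg adjusted p under 0.05, which is 3.77% of those tested. The calls divided evenly, with 279 higher (1.88%) and 279 lower (1.88%). Most changes were small: the median log2 fold change was 0.27 among genes called higher and -0.21 among genes called lower. Only 30 genes passed 2-fold, 22 higher and 8 lower, and 7 of the 30 reached 5 CPM in the group where they were higher. Libraries of the 2 groups did not overlap for 545 of the 558 called genes, against 3293 (22.2%) of all genes tested. The count was 287 without OVA replicate 3, with 281 of the 558 among them, and 173 without OVA replicate 2, with 171 of the 558 among them. Replicates come from separate libraries, and the labels do not say whether they were separate mice, so the tests measure the spread between libraries, which may be technical.

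**Figure D1:**
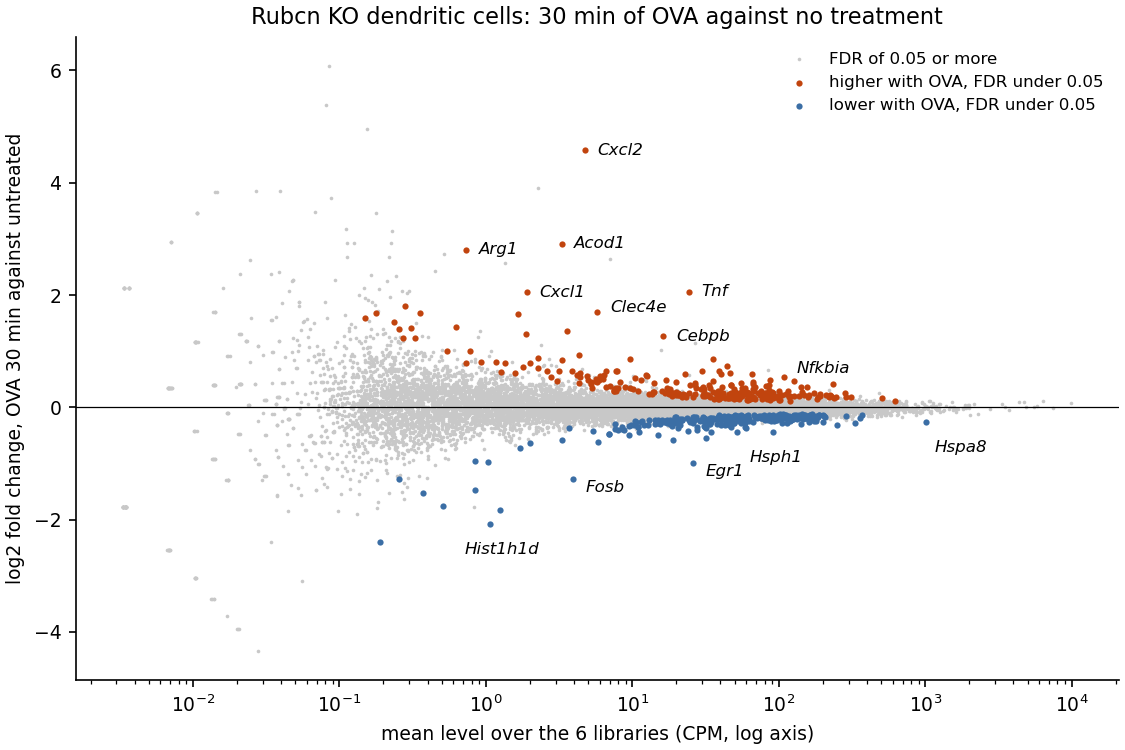
Log2 fold change, OVA 30 min against untreated, against the mean level over the 6 Rubcn KO libraries (CPM, log axis), 1 point per tested gene. Orange points are the 279 genes called higher and blue points the 279 called lower. Cxcl2 and Tnf stand far above the bulk of called genes, whose median log2 fold change was 0.27 for rises and -0.21 for falls.

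Several chemokine and cytokine genes rose, and Cxcl2 rose more than any other gene named here. Cxcl2, a neutrophil-attracting chemokine (mm10 chr5:90903899-90905938, plus strand), stood at 9.56, 9.86 and 7.72 CPM with OVA and at 0.315, 0.352 and 0.501 CPM untreated. Every OVA library lay far above every untreated one, a 23.9-fold rise (log2 4.58, SE 0.266, adjusted p = 1.54e-12), from 15, 17 and 25 untreated counts to 469, 451 and, in the shallow library, 80 counts. Tnf, the gene of tumour necrosis factor (mm10 chr17:35199367-35202007, minus strand), stood at 38.8, 36.8 and 42.6 CPM against 9.43, 9.43 and 9.10 CPM, a 4.18-fold rise (log2 2.06, SE 0.106, adjusted p = 1.24e-13). Its groups were separated by many times their spread. Cxcl1, a chemokine closely related to Cxcl2 (mm10 chr5:90891245-90893115, plus strand), stood at 2.85, 3.19 and 3.19 CPM against 0.63, 0.726 and 0.842 CPM (log2 2.05, SE 0.238, adjusted p = 2.79e-06). Il1b, the gene of interleukin-1 beta, stood at 40.9, 53.8 and 42.7 CPM against 25.7, 25.7 and 24.3 CPM (log2 0.87, SE 0.157, adjusted p = 0.00112), with OVA replicate 2 the highest.

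Of the 41 cytokine and chemokine genes tested, 5 were called higher (Tnf, Cxcl2, Cxcl1, Il1b and Ccl9) and none lower, with 4 calls without OVA replicate 2, where Ccl9 was lost (adjusted p = 0.124), and 5 without OVA replicate 3. The list's median log2 fold change was 0.22, against 0.0 over all genes, of which 1.88% were called higher. Many cytokines that dendritic cells make later were low or little changed: Il12b, a subunit of interleukin-12, ranged from 14.5 to 20.3 CPM with OVA and from 16.1 to 16.8 untreated. Il6 ranged from 0.367 to 0.579 against 0.252 to 0.622 CPM. Ifnb1, the gene of interferon beta, reached at most 0.0437 CPM with OVA and had no count in untreated libraries.

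The sequence before the start of the most strongly raised gene is printed here because it holds a cluster of the motif that NF-kB proteins are known to bind. Sequences are the 250 bases before the gene's start in RefSeq (build GRCm38.p6), read 5′ to 3′ on the gene's strand, with matches to searched motifs in capitals. Of the 24 genes with the largest rises and falls, 20 had a promoter in the RefSeq table and 6 of these held a searched motif; 4 of the 6 are shown, chosen after the matches were seen. Cxcl2 (chr5:90903649-90903898, plus strand) holds the longer NF-kB motif, GGG and TTTCC with 2 free bases between them, at 97 to 88 and at 78 to 69 bases before the start. Tnip3 (chr6:65590148-65590397, plus strand), an inhibitor of NF-kB signalling, holds the shorter GGGNNTTCC on the opposite strand at 53 to 45 bases. Prdm1 (chr10:44458749-44458998, minus strand) holds the AP-1 motif TGANTCA at 48 to 42 bases, and Tra2a (chr6:49264053-49264302, minus strand), a gene that fell, holds the cyclic AMP response element (CRE) TGACGTCA at 27 to 20 bases and its shorter form TGACGT on the opposite strand at 49 to 44 bases.
Cxcl2: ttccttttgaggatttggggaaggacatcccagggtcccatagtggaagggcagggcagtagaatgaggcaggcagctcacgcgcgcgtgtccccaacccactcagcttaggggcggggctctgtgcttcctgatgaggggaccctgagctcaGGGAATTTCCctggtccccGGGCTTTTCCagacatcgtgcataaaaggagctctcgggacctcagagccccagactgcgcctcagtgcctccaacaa
Tnip3: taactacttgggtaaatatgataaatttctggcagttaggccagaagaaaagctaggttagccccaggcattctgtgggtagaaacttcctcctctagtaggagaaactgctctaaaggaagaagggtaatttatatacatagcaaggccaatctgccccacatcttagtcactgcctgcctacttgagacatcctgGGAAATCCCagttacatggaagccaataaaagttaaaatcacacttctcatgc
Prdm1: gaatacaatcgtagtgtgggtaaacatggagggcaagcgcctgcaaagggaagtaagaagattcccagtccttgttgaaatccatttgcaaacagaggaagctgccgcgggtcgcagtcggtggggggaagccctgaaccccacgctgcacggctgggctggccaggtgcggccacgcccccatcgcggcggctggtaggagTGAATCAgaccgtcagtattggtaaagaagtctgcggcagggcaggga
Tra2a: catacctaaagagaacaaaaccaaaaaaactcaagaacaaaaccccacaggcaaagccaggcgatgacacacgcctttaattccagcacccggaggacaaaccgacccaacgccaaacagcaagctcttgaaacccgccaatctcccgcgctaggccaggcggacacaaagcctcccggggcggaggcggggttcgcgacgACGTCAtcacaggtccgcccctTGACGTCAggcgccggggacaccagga

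Such motifs were not confined to genes that changed. Both strands were searched over the same 250 bases in 11595 of 14803 tested gene identifiers, 217 of them called higher and 223 called lower. The longer NF-kB motif stood in 2.76% of the promoters of genes called higher, 1.79% of those called lower and 1.46% of all. For GGGNNTTCC, whose matches do not contain the longer form, the shares were 5.99%, 6.73% and 6.12%. TGACGTCA stood in 4.15%, 3.59% and 2.6%, TGACGT, which overlaps it, in 11.5%, 7.62% and 9.7%, and TGANTCA in 5.07%, 3.59% and 4.66%. The interferon-stimulated response element, TTTC and TTTC with 2 free bases between them, stood in 1.38%, 0.897% and 2.87%, the CArG box of serum response factor in 1.38%, 0.897% and 1.2%, and the heat shock element, GAA, TTC and GAA with 2 free bases between each, in 0.0%, 0.0% and 0.31%. A match is a run of letters and was not tested as a binding site.

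Some genes of the NF-kB pathway that restrain it rose together with its targets. Of 35 NF-kB subunits and feedback genes tested, 12 were called higher and none lower, where 1.88% of all genes were called in each direction. A log2 fold change above 0 was seen in 32 of the 35, against 50.2% of all genes tested. The list had a median of 0.20 on the log2 scale, and 7 were called without OVA replicate 2 and 9 without OVA replicate 3. Nfkbia, which encodes the inhibitor IkB alpha that holds NF-kB in the cytoplasm, stood at 131, 128 and 126 CPM with OVA and 87.5, 88.6 and 87.4 CPM untreated. The groups were tight and well apart (log2 0.55, SE 0.0529, adjusted p = 1.43e-07). Tnfaip3, which encodes the ubiquitin-editing inhibitor A20, stood at 78.4, 77.4 and 83.7 against 55.0, 52.1 and 50.1 CPM (log2 0.60, SE 0.0673, adjusted p = 1.64e-06). Tnip3, which encodes a partner of A20, stood at 54.7, 57.0 and 54.6 against 37.1, 33.0 and 29.2 CPM (log2 0.75, SE 0.0987, adjusted p = 2.01e-05). Zc3h12a, which encodes Regnase-1, a nuclease of inflammatory mRNAs, stood at 36.5, 40.1 and 36.5 against 27.7, 28.5 and 29.7 CPM (log2 0.40, SE 0.0425, adjusted p = 6.63e-07). All 4 of these inhibitors had every OVA library above every untreated one. Other inhibitors in the list were not called: Nfkbib (log2 0.08, adjusted p = 0.473), Nfkbie (0.06, 0.661), Tnip1 (0.06, 0.623), Tnip2 (-0.02, 0.891), Cyld (-0.01, 0.926) and Irak3 (0.01, 0.982).

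Other called members of the list rose by 0.20 to 2.91 on the log2 scale. Acod1, which encodes the enzyme that makes itaconate, stood at 5.54, 6.36 and 5.50 against 0.588, 0.871 and 0.882 CPM (log2 2.91, SE 0.661, adjusted p = 0.00979), with no overlap but a wide error, and its adjusted p was 0.0658 without OVA replicate 2. Tnfaip2 stood at 249, 283 and 272 against 198, 199 and 208 CPM (log2 0.41, SE 0.0507, adjusted p = 6.8e-06). The NF-kB subunit genes themselves were not called: Rela ranged from 124 to 131 against 114 to 124 CPM, Rel from 48.7 to 52.9 against 46.1 to 50.0 CPM and Nfkb1 from 467 to 484 against 512 to 519 CPM (adjusted p = 0.102). The remaining called members were Nfkbiz, Gpr84, Nfkbid, Bcl3, Gadd45b and Icam1. Of these, Nfkbid (adjusted p = 0.167), Bcl3 (0.114), Gadd45b (0.11) and Icam1 (0.167) were lost without OVA replicate 2, Nfkbid (0.0654), Bcl3 (0.0541) and Icam1 (0.0567) without replicate 3, and Nfkbid (0.0775) and Icam1 (0.0516) without replicate 1.

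**Figure D2:**
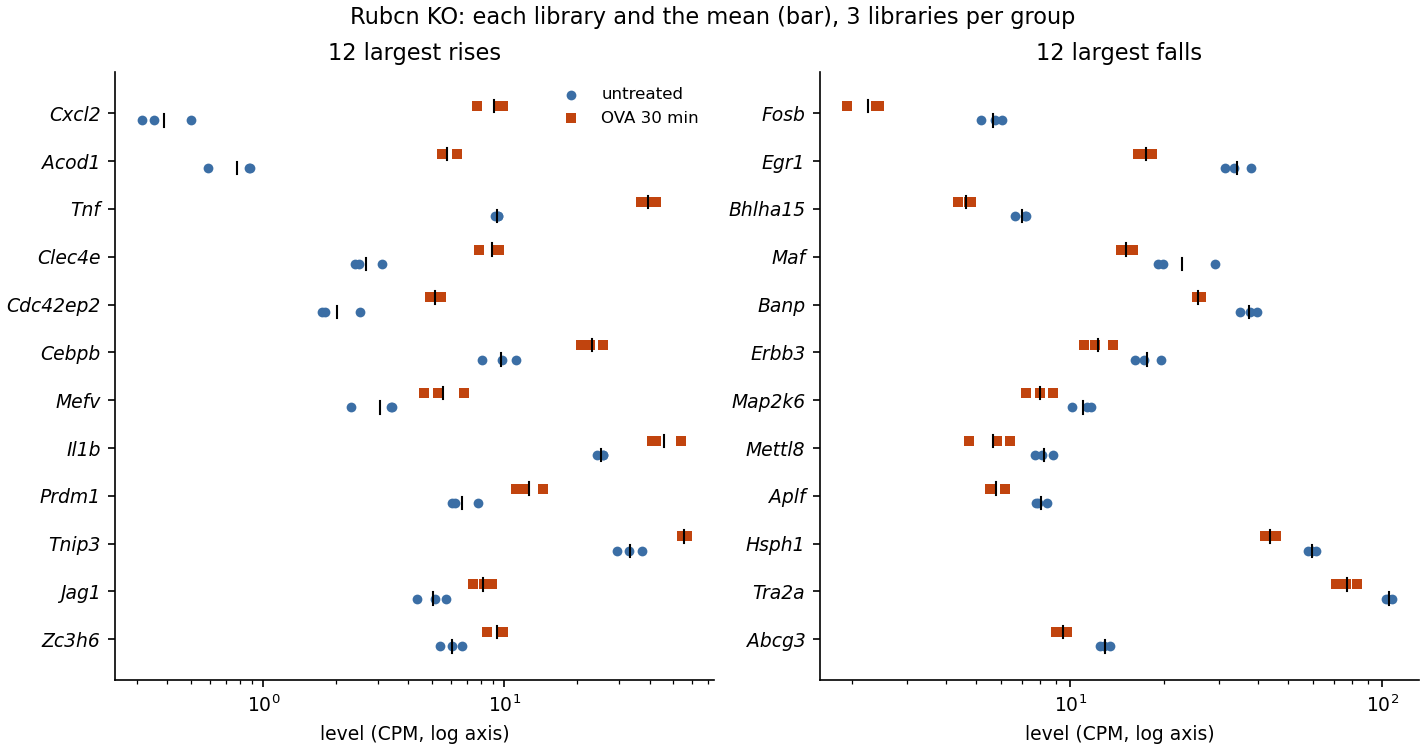
Levels of the 12 genes with the largest rises (left) and the 12 with the largest falls (right) in each Rubcn KO library (CPM, log axis), with untreated libraries as blue circles, OVA libraries as orange squares and each group's mean as a black bar. No OVA library overlaps an untreated one for any of the 24 genes, and Cxcl2, Acod1 and Tnf have the widest gaps.

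The other genes among the 12 largest rises had varied functions. Clec4e, which encodes the pattern-recognition receptor Mincle, stood at 7.85, 9.31 and 9.46 CPM with OVA and 3.11, 2.4 and 2.5 CPM untreated (log2 1.70, SE 0.3, adjusted p = 0.00084). Cebpb, which encodes a transcription factor of inflammatory and myeloid genes, stood at 22.6, 25.6 and 20.7 against 11.2, 8.08 and 9.76 CPM (log2 1.27, SE 0.146, adjusted p = 2.39e-06). Both were separated by more than the spread of either group. Prdm1, which encodes the repressor Blimp-1, stood at 11.2, 12.1 and 14.5 against 7.75, 6.09 and 6.23 CPM (log2 0.86, SE 0.101, adjusted p = 3.51e-06). Cdc42ep2, an effector of the small GTPase Cdc42, stood at 5.46, 5.07 and 4.92 against 2.52, 1.80 and 1.76 CPM (log2 1.36, SE 0.134, adjusted p = 1.62e-07). Mefv, which encodes the inflammasome sensor pyrin, rose by 0.94 on the log2 scale (SE 0.137). The CCCH zinc finger gene Zc3h6 rose by 0.66 (SE 0.1), and Jag1, which encodes a Notch ligand, rose by 0.66 (SE 0.102).

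Of 35 genes of Toll-like receptor signalling, 4 were called higher (Tlr2, Cd14, Tab1 and Irak2) and none lower. Over all genes 1.88% were called in each direction. The list median was 0.02, and 3 were called without OVA replicate 2 and 3 without OVA replicate 3. Irak2 was lost without any 1 of OVA replicates 1, 2 and 3 (adjusted p = 0.122, 0.101 and 0.0634). Tlr2, a receptor for bacterial lipoproteins, stood at 77.2, 76.1 and 79.5 against 56.3, 56.8 and 56.7 CPM (log2 0.45, SE 0.042, adjusted p = 7.28e-08). Cd14, a co-receptor for lipopolysaccharide, stood at 46.5, 50.5 and 45.6 against 35.5, 30.0 and 25.9 CPM (log2 0.65, SE 0.0823, adjusted p = 9.43e-06). Groups did not overlap for either gene. Tlr4, the lipopolysaccharide receptor, ranged from 29.7 to 35.8 CPM with OVA and from 28.2 to 35.9 CPM untreated, and Myd88, the shared adaptor, from 124 to 127 against 123 to 127 CPM.

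Immediate early transcription factors moved both ways. Of 30 tested, 7 were called higher (Nr4a1, Maff, Junb, Ier3, Egr2, Srf and Jund) and 2 lower (Egr1 and Fosb), with a list median of 0.17. The share of all genes called was 1.88% in each direction. Without OVA replicate 2, 2 were called higher, with Junb, Ier3, Egr2, Srf and Jund lost, and without OVA replicate 3, 4 were, with Egr2, Srf and Jund lost. Both falls were called in either case. Egr1, which encodes a zinc finger factor induced by growth factors through MAP kinases, stood at 17.5, 16.5 and 18.3 CPM with OVA and 38.0, 31.3 and 33.5 CPM untreated. No OVA library reached an untreated one, and the fitted ratio was 0.503 (log2 -0.99, SE 0.107, adjusted p = 1.07e-06). Fosb, which encodes a subunit of AP-1, stood at 2.38, 2.45 and 1.93 against 5.73, 5.20 and 6.07 CPM (log2 -1.27, SE 0.144, adjusted p = 2.17e-06). Nr4a1, which encodes an orphan nuclear receptor, stood at 22.7, 23.2 and 22.5 against 15.9, 17.2 and 17.1 CPM (log2 0.45, SE 0.0556, adjusted p = 6.55e-06), and Maff, which encodes a small Maf factor, at 11.1, 12.8 and 13.5 against 8.76, 8.31 and 8.28 CPM (log2 0.53, SE 0.0771, adjusted p = 8.69e-05). Fos ranged from 53.9 to 57.1 against 59.8 to 68.6 CPM (adjusted p = 0.222) and Myc from 76.8 to 80.7 against 77.5 to 86.0 CPM, neither of which was called.

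Feedback genes of MAP kinase and cytokine signalling also went both ways, with 6 of 24 called higher (Socs3, Dusp2, Dusp16, Dusp1, Dusp4 and Per1) and 2 lower (Sik1 and Dusp6). The share of all genes was 1.88% each way. Of the rises, 4 were called without OVA replicate 2, with Dusp4 and Per1 lost, and 5 without OVA replicate 3, with Per1 lost. Socs3, an inhibitor of cytokine receptor signalling, stood at 32.5, 42.0 and 34.9 against 23.1, 23.9 and 23.3 CPM (log2 0.65, SE 0.0898, adjusted p = 4.57e-05). Dusp2, a nuclear phosphatase of MAP kinases, stood at 27.4, 28.8 and 26 against 19.6, 17.8 and 17.8 CPM (log2 0.59, SE 0.0915, adjusted p = 0.000204). Dusp16 and Dusp1, phosphatases that act on p38 and JNK, rose by 0.28 (SE 0.0445) and 0.39 (SE 0.0725) on the log2 scale. Dusp6, a phosphatase specific for ERK, ranged from 70.7 to 79.1 against 86.0 to 88.1 CPM (adjusted p = 0.00721, or 0.0574 without OVA replicate 2). Map2k6, which encodes a kinase upstream of p38, fell by 0.49 on the log2 scale (SE 0.0784, adjusted p = 0.000238).

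**Figure D3:**
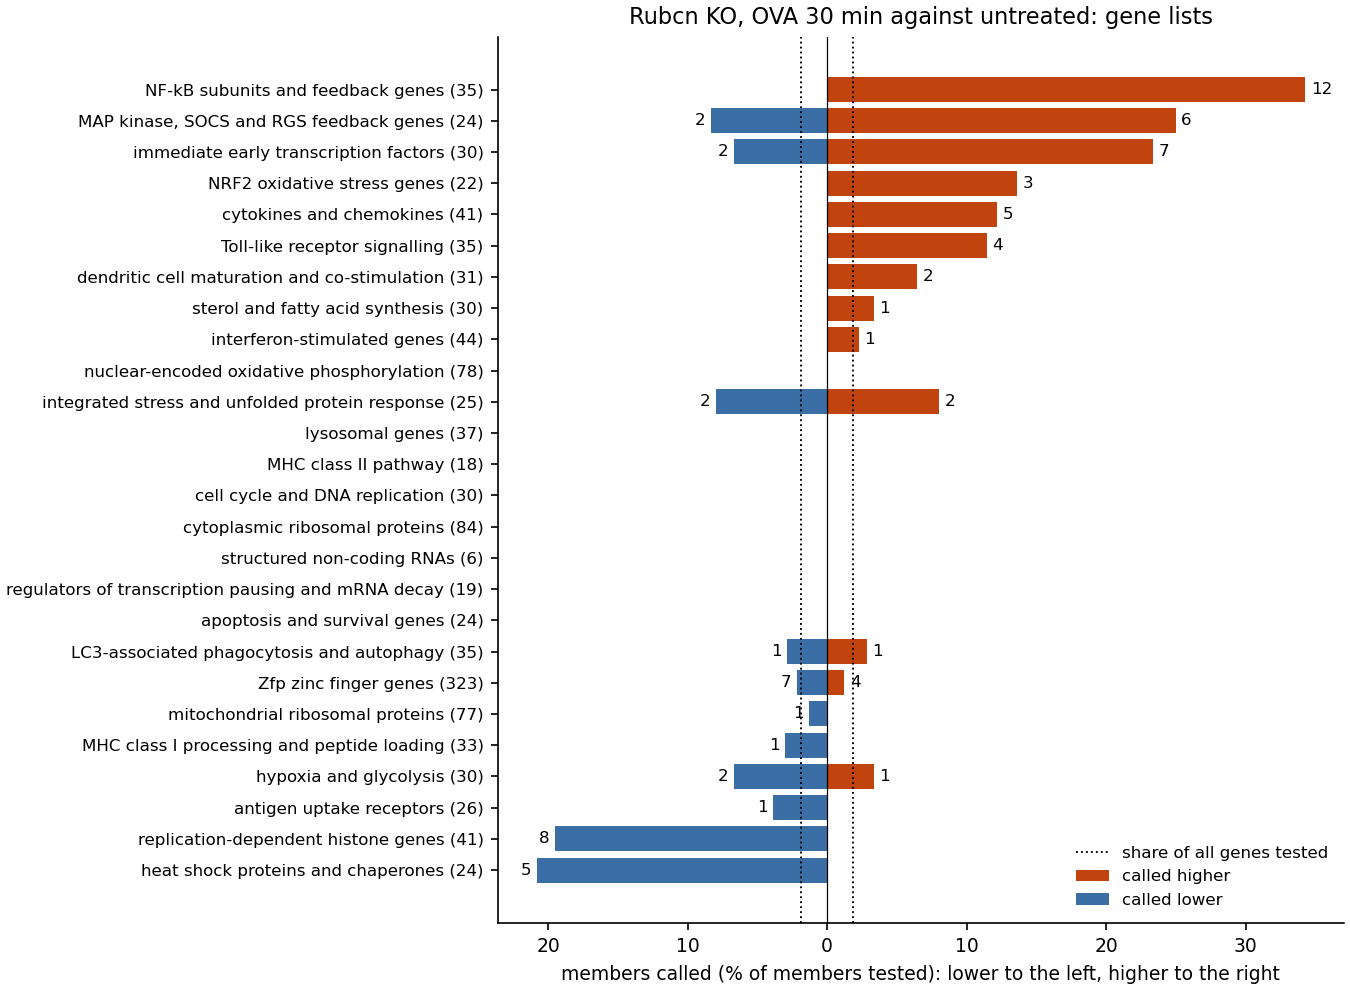
Share of each of 26 gene lists called higher (orange, to the right) or lower (blue, to the left) in Rubcn KO cells after 30 min of OVA, with the number of genes called beside each bar and the number tested in brackets. Dotted lines mark 1.88%, the share of all tested genes called in each direction. Among the lists plotted, NF-kB genes (12 of 35) have the largest share called higher, and heat shock genes (5 of 24) and histone genes (8 of 41) the largest shares called lower.

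Calls among antigen presentation genes are read against the 3.77% called over all genes. Counts at an unadjusted p under 0.05 are read against 17.0% of all genes tested. Of 33 MHC class I processing and loading genes, none was called higher and 1 lower: Rab27a, a vesicle-trafficking GTPase, stood at 98.5, 101 and 95.7 against 105, 110 and 107 CPM (log2 -0.12, SE 0.0347, adjusted p = 0.0404), a call lost without any 1 of OVA replicates 1, 2 and 3 (0.0809, 0.0786 and 0.157). Tap1, a subunit of the peptide transporter, ranged from 338 to 350 against 309 to 340 CPM, and B2m, the light chain of MHC class I, from 982 to 1020 against 986 to 1050 CPM. None of 18 MHC class II pathway genes was called by edgeR or DESeq2, with 5 at an unadjusted p under 0.05. Of 31 maturation and co-stimulation genes, Cd83 (log2 0.27, SE 0.0724, adjusted p = 0.03) and Cd86 (log2 0.26, SE 0.0711, adjusted p = 0.0365) were called higher, both lost without OVA replicate 2 (0.183 and 0.248) or 3 (0.0566 and 0.0545), and Cd86 also without replicate 1 (0.0541). Ccr7, the receptor that guides dendritic cells to lymph nodes, ranged from 100 to 138 against 102 to 108 CPM. Of 26 antigen uptake receptors, Fcgr2b, the inhibitory Fc receptor, was called lower (115, 103 and 110 against 128, 129 and 128 CPM, log2 -0.24, SE 0.0458, adjusted p = 0.00245, or 0.0577 without OVA replicate 2). Mrc1, the mannose receptor known to take up ovalbumin, ranged from 72.6 to 84.8 against 70.1 to 110 CPM.

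Genes of LC3-associated phagocytosis and autophagy had 1 of 35 members called higher, 1 lower and a list median of -0.01, where 3.77% of all genes were called. Atg16l1, which directs LC3 to membranes, stood at 65.2, 69.1 and 70.9 against 58.5, 61.5 and 61.3 CPM (log2 0.17, SE 0.0367, adjusted p = 0.00547, or 0.062 without OVA replicate 2). Nbr1, an autophagy receptor, stood at 126, 118 and 117 against 138, 135 and 129 CPM (log2 -0.16, SE 0.0402, adjusted p = 0.0236, or 0.155 without OVA replicate 2 and 0.112 without replicate 3). Cybb, the catalytic subunit of the phagosomal NADPH oxidase, ranged from 587 to 662 against 631 to 738 CPM, and Map1lc3b, which encodes LC3B, from 78.1 to 85.3 against 78.0 to 84.3 CPM. None of 37 lysosomal genes was called by edgeR or DESeq2, with 5 at an unadjusted p under 0.05, against 17.0% of all genes tested.

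Of 24 heat shock and chaperone genes tested, 5 were called lower, none higher and 19 were not called. Over all genes 1.88% were called in each direction. The list had 7 members above 0 and a median of -0.095 on the log2 scale, and 2 were called lower without OVA replicate 2 and 2 without OVA replicate 3. Hsph1, which encodes the chaperone Hsp105, stood at 45.7, 42.2 and 43.0 CPM with OVA and 61.2, 58.0 and 59.6 CPM untreated. All OVA libraries lay under all untreated ones (log2 -0.45, SE 0.059, adjusted p = 1.93e-05). Hspa8, the constitutive Hsc70 chaperone, stood at 989, 919 and 866 against 1100, 1130 and 1100 CPM (log2 -0.26, SE 0.0531, adjusted p = 0.00342). Chordc1, a cofactor of Hsp90, stood at 58.3, 49.6 and 47.6 against 69.3, 66.8 and 67.2 CPM (log2 -0.37, SE 0.0821, adjusted p = 0.00812, or 0.0943 without OVA replicate 2 and 0.0508 without replicate 3). Dnajb9 and Dnajc3, co-chaperones of the endoplasmic reticulum, were also called lower, and both were lost without OVA replicate 2 (adjusted p = 0.138 and 0.223) or 3 (0.0648 and 0.122). The inducible Hspa1b, which has a near-identical copy in Hspa1a, ranged from 1.41 to 1.54 against 1.44 to 1.97 CPM and Hsp90ab1 from 1550 to 1580 against 1550 to 1560 CPM.

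Among other stress genes, Xbp1, a transcription factor of the unfolded protein response, stood at 286, 265 and 272 against 312, 300.0 and 306 CPM (log2 -0.16, SE 0.0416, adjusted p = 0.0262). Of 25 genes of the integrated stress and unfolded protein responses, 2 were called higher (Slc7a11 and Ppp1r15a) and 2 lower (Dnajb9 and Xbp1), and none of the 4 was called without OVA replicate 2 or without OVA replicate 3. This list and the next are read against 1.88% of all genes called in each direction. Of 22 targets of the oxidative stress factor NRF2, 3 were called higher: Txnrd1, a thioredoxin reductase (164, 188 and 173 against 145, 136 and 129 CPM, log2 0.36, SE 0.0558), Gsr, glutathione reductase (log2 0.22, SE 0.0476), and Slc7a11, a cystine transporter (log2 0.64, SE 0.174). OVA replicate 2 was the highest for all 3, and of them only Txnrd1 was called without it (adjusted p = 0.00671).

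The remaining lists are given as counts, beside the 3.77% called over all genes and the 17.0% at an unadjusted p under 0.05. Of 30 hypoxia and glycolysis genes, Slc16a3, a lactate transporter, was called higher, and Ndrg1 and P4ha1, a collagen prolyl hydroxylase, were called lower. All 3 were lost without OVA replicate 2 (adjusted p = 0.285, 0.145 and 0.109), and the 2 falls also without replicate 1 (0.104 and 0.14) or 3 (0.117 and 0.116). Of 323 zinc finger genes named Zfp, 4 were called higher and 7 lower. These became 1 and 0 without OVA replicate 2 and 1 and 1 without OVA replicate 3. Of 77 mitochondrial ribosomal protein genes, Mrpl44 was called lower. With edgeR, no call was made among 84 cytoplasmic ribosomal protein genes (2 at an unadjusted p under 0.05), 78 oxidative phosphorylation genes (3), 24 apoptosis genes (5) or 19 regulators of transcription pausing and mRNA decay (10), where DESeq2 called 1, in the last list.

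The other genes among the 12 largest falls had varied functions. Banp, which encodes a nuclear factor that binds CpG-rich promoters, stood at 25.7, 26.2 and 25.4 against 35.1, 39.8 and 37.7 CPM (log2 -0.54, SE 0.05, adjusted p = 7.28e-08). Tra2a, which encodes a splicing activator, stood at 83.2, 76.2 and 71.0 against 107, 104 and 103 CPM (log2 -0.44, SE 0.057, adjusted p = 1.84e-05). Both had all OVA libraries below all untreated ones. Bhlha15, which encodes the secretory-cell factor Mist1, fell by 0.61 on the log2 scale (SE 0.1), Mettl8, an RNA methyltransferase, by 0.48 (SE 0.0868), Aplf, a DNA repair factor, by 0.47 (SE 0.077), and the transporter gene Abcg3 by 0.43 (SE 0.0877). Maf, a transcription factor of macrophages, stood at 15.9, 14.8 and 14.5 against 29.2, 19.9 and 19.1 CPM (log2 -0.58, SE 0.155, adjusted p = 0.0286, or 0.156 without OVA replicate 2 and 0.0768 without replicate 3). Its highest level was in untreated replicate 1, the library with the highest sum of the 15 monocyte or macrophage markers (5140 CPM, against 4270 to 4510 in the other 5), and the part of those cells in the result was not tested. Erbb3, a receptor of the ErbB family, fell by 0.49 (SE 0.115, adjusted p = 0.0118, or 0.105 without OVA replicate 2).

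Replication-dependent histone genes, whose mRNAs end in a stem-loop in place of a poly(A) tail, were lower at low counts. Of 41 tested, 8 were called lower and none higher, where 1.88% of all genes were called in each direction. A log2 fold change below 0 was seen in 39, against 49.3% of all genes tested, with a list median of -0.74. Of the 41, 30 had group means under 1 CPM. The count filter can keep such a gene on 1 group where it is higher, so the count of directions is a description. Counts behind these values were small, and the histone genes have near-identical copies whose reads counting could split. The members were therefore summed in 2 groups, split at a mean of 2 CPM after the values were seen. The 35 members under 2 CPM summed to 8.91, 10.1 and 9.36 CPM with OVA and 16.4, 20 and 22.3 CPM untreated, from 437, 460 and 97 counts against 781, 963 and 1113. The shallow library lay between the other OVA libraries, and the ratio of the group means was 0.483. The 6 members at or above 2 CPM summed to 54.8, 54.4 and 59.6 against 59.3, 59.8 and 58.5 CPM, overlapping ranges. Hist1h1d, a linker histone gene, stood at 0.469, 0.459 and 0.0965 against 1.53, 1.66 and 2.14 CPM (log2 -2.08, SE 0.488, adjusted p = 0.0122, or 0.0775 without OVA replicate 2), with 1 count in OVA replicate 3.

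Low genes as a whole were not shifted down: of 3588 tested genes under 2 CPM, histones included, 42.8% had a log2 fold change below 0, with a median of 0.05, and 10 (0.279%) were called lower. The same 35 histone genes summed to 7.36, 7.36 and 8.49 CPM in WT cells given OVA against 18.1, 17.7 and 15.3 CPM in untreated WT cells, and to 11.5, 10.9 and 11.9 CPM in KO cells after 4 h of OVA. None of 30 cell cycle and DNA replication genes was called in KO cells by edgeR or DESeq2 (4 at an unadjusted p under 0.05, against 17.0% of all genes). In WT cells 6 of these 30 were called lower and 1 higher, where 5.15% and 5.51% of all genes were. In KO cells the 11 markers of proliferating cells summed to 1880 to 1990 with OVA against 1900 to 1990 CPM untreated. The 6 structured non-coding RNAs tested, which mark carry-over of RNA without poly(A) tails, summed to 1350 to 1680 against 1420 to 1720 CPM in KO cells. None was called by edgeR or DESeq2, with 0 at an unadjusted p under 0.05. Of the 6, 5 had group means under 1 CPM and added almost nothing to the sum. The part of library preparation in the histone values was not tested. The count of 8 fell to 2 without OVA replicate 2, to 6 without OVA replicate 3, to 1 with DESeq2 and to 0 when all libraries were thinned to the shallowest.

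**Figure D4:**
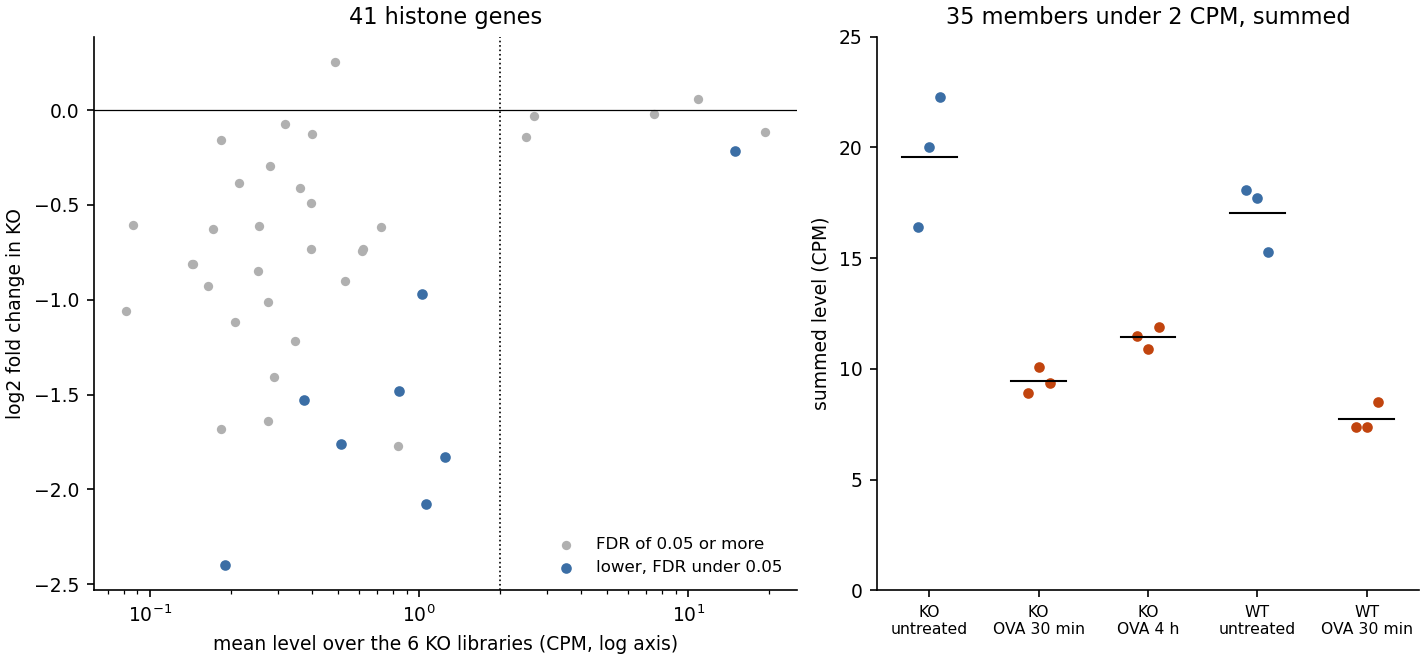
Left, log2 fold change in Rubcn KO cells of the 41 replication-dependent histone genes against their mean level (CPM, log axis), with the 8 called lower in blue and the 2 CPM split as a dotted line. Right, summed CPM of the 35 members under 2 CPM in each library, with group means as bars: KO untreated libraries sit at 16.4 to 22.3 and KO libraries given OVA for 30 min at 8.91 to 10.1.

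The called genes with the largest changes were short. The median genomic span was 10.1 kb for the 50 genes called higher by at least 1.5-fold and 2.27 kb for the 14 called lower by at least 1.5-fold, against 20.3 kb over all tested genes. Those 14 include the short histone genes Hist2h3b, Hist1h1d, Hist2h2ac and Hist1h3c. Like Hist1h1d, the other histone genes named lost the call without an OVA library. The adjusted p was 0.16 for Hist2h3b without replicate 2 and 0.054 for Hist2h2ac without replicate 1. For Hist1h3c it was 0.0631 without replicate 1 and 0.0545 without replicate 3. The median span was 24.5 kb over all genes called higher and 35.0 kb over all called lower. The larger changes also came from genes with lower CPM, which is not corrected for gene length. Median levels were 2.27 and 1.04 CPM, against 39.4 CPM over all genes called higher and 49.2 CPM over all called lower.

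The same exposure in WT cells asks which of these changes were also seen with Rubcn present. In WT cells 1578 genes were called (10.7%), 816 higher (5.51%) and 762 lower (5.15%). KO and WT share no library, and 395 genes were called in both, 70.8% of the KO calls and 25% of the WT calls. Of the 558 genes called in KO, 546 had the same sign in WT, as did 151 of the 163 called in KO alone, and of the 1183 called in WT alone 1099 had the same sign in KO. Cxcl2 stood at 22.1, 19.9 and 18.4 CPM in WT with OVA and at 0.957, 0.367 and 0.612 CPM untreated (log2 4.96, SE 0.209). Tnf stood at 56.1, 55.2 and 51.1 against 9.73, 11.5 and 10.2 CPM (log2 2.37, SE 0.101). Both were higher in every WT library with OVA than in any KO library with OVA.

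The difference between the genotypes' responses was tested directly, and no gene passed an adjusted p under 0.05 with edgeR. The smallest adjusted p was 0.751, and 795 genes (5.37%) had an unadjusted p under 0.05. DESeq2 also called 0, with 670 at an unadjusted p under 0.05. For Tnf the KO response was lower by a log2 difference of -0.31 (SE 0.146, unadjusted p = 0.0455, adjusted p = 0.894), for Cxcl1 by -0.80 (SE 0.383, unadjusted p = 0.0455, adjusted p = 0.894) and for Prdm1 by -0.35 (SE 0.139, unadjusted p = 0.0168, adjusted p = 0.894). Insig1, a sterol-sensing regulator of cholesterol synthesis, stood at 129, 121 and 133 against 112, 101 and 98.3 CPM in KO (log2 0.29, SE 0.0557, adjusted p = 0.00221) and rose by 0.58 (SE 0.055) in WT, a difference of -0.29 (SE 0.0782, unadjusted p = 0.000893, adjusted p = 0.808). It was the only member called of the 30 sterol and fatty acid synthesis genes in KO, where 12 were called higher in WT. Over all genes 1.88% were called higher in KO and 5.51% in WT. Ifitm3 differed the other way, with a KO response higher by 0.24 (SE 0.0752, unadjusted p = 0.00398, adjusted p = 0.894). Rubcn, given above, also differed upward, by 0.21. The genes named for this contrast were picked after their values were seen. Of the 200 genes called higher in both genotypes, 127 (63.5%) had the smaller log2 fold change in KO, with medians of 0.27 and 0.31. Of the 195 called lower in both, 108 (55.4%) had the smaller one, with medians of -0.22 and -0.23. The KO group holds the shallow OVA library and the WT groups do not, so depth and genotype cannot be told apart in the number of calls.

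**Figure D5:**
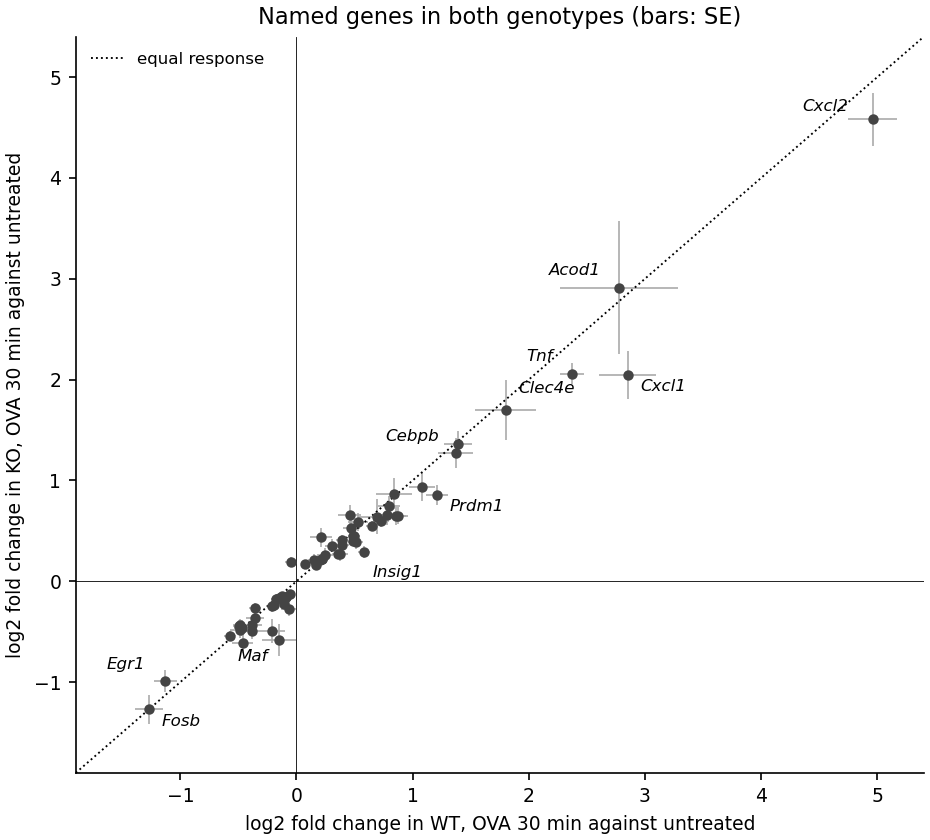
Log2 fold change after 30 min of OVA in Rubcn KO cells (vertical) against WT cells (horizontal) for 63 genes named by rule, histone genes left out, with 1 SE as bars. Points lie near the line of equal response, with Tnf, Cxcl1 and Prdm1 below it and Ifitm3 above it. No difference between genotypes passed an adjusted p under 0.05.

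By 4 h of OVA, more of the genes raised at 30 min had fallen back than had risen further in KO cells. Of the 279 called higher at 30 min, 126 were called lower at 4 h than at 30 min and 24 higher. Of the 279 called lower, 118 were called higher at 4 h than at 30 min and 5 lower. Over all genes 12.8% were called in this later contrast. It uses the same 30 min libraries, so its values are given beside the first and not as independent evidence. Genes picked as high or low at 30 min tend to move back in such a contrast, and that part was not tested. Acod1 went on from 5.54, 6.36 and 5.50 CPM at 30 min to 48.8, 41.3 and 51.1 CPM at 4 h (log2 3.0, SE 0.391, adjusted p = 5.82e-06), Clec4e to 27.3, 26.6 and 30.5 CPM (log2 1.69, SE 0.224) and Cd14 to 80.0, 74.3 and 78.2 CPM (log2 0.70, SE 0.0793). Cxcl2 stood at 9.72, 7.19 and 8.75 CPM (log2 -0.13, SE 0.153, adjusted p = 0.655) and Tnf at 40.1, 34.3 and 37.6 CPM (log2 -0.06, SE 0.0954, adjusted p = 0.753), with ranges that overlapped those at 30 min. Nr4a1 fell back to 18, 15.8 and 16.3 CPM (log2 -0.45, SE 0.0559) and Zc3h6 to 5.59, 6.56 and 5.36 CPM (log2 -0.71, SE 0.101).

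Several genes lower at 30 min were higher again at 4 h. Egr1 rose from 17.5, 16.5 and 18.3 to 36.3, 26.8 and 27.3 CPM (log2 0.81, SE 0.108, adjusted p = 8.22e-06) and Tra2a to 112, 109 and 111 CPM (log2 0.52, SE 0.0571, adjusted p = 5.28e-07). Hsph1 rose to 57.9, 54.0 and 56.3 CPM (log2 0.36, SE 0.0592) and Banp to 35.4, 33.2 and 33.6 CPM (log2 0.40, SE 0.0504). Fosb stayed low at 2.22, 1.90 and 2.15 CPM (log2 -0.17, SE 0.166, adjusted p = 0.582). Of 44 interferon-stimulated genes, Ifitm3 alone was called at 30 min (227, 237 and 237 against 191, 214 and 209 CPM, adjusted p = 0.0408, or 0.175 without OVA replicate 2 and 0.131 without replicate 3). At 4 h against untreated 42 of the 44 were called higher, with a list median of 0.86 on the log2 scale. The share of all genes called at 4 h against untreated is not given here. At 4 h against 30 min it was 12.8%.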

How the data were processed

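Libraries were made with a TruSeq v2 RNA kit that does not mark strand, per the labels' protocols. The authors deposited whole-number read counts per gene with mm10 intervals, and the submitters' processing notes name STAR 2.5, Subread, featureCounts 1.5.0-p1, DESeq2 and mm10. How reads of overlapping or near-identical genes were counted is not given in the sources used here.

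All 30 libraries (10 groups of 3, from the sample titles) were fitted in 1 model with edgeR 4.0.16 (R 4.3.3), TMM scaling and filterByExpr. The quasi-likelihood F test was two-sided, and SE is the size of the log2 fold change over the square root of F. In a test on simulated data for this comparison (200 changed of 14726 genes), 87.9% of 1.5-fold and 99% of 2-fold changes were called, with 6.03% of calls false. Its counts were drawn from the fitted means and dispersions, and only genes above a minimum level were changed. It therefore does not cover smaller changes, lower genes or a library that departs from the model. The shares describe the simulated data alone.

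The comparison and its 39 gene lists were chosen with earlier results of these data known. Named genes are the 12 largest rises and falls with an adjusted p under 0.05, a mean of 5 CPM or more in 1 group and libraries that do not overlap, and up to 4 called members of each list by smallest p. Predicted genes were passed over. Markers and uncalled examples were chosen after their values were seen, as were called list members beyond the 4. Alternatives were DESeq2 1.42.0, its size factors, total counts, limma 3.58.1 voom, other filters, thinning, other sets of libraries, a replicate block and leaving out each library. No 2 libraries of a group agreed within sampling noise.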

Additional observations from a re-analysis of the deposited data

How the results depend on the processing

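The 558 calls became 256 when all libraries were thinned to the shallowest, 246 in a fit of the compared libraries alone, 273 in that fit with the replicate number as a block, and 971 with limma voom and quality weights. Leaving out 1 library at a time gave 173 to 710 calls: 710, 173 and 287 without OVA replicates 1, 2 and 3, and 376, 334 and 361 without untreated replicates 1, 2 and 3. The share of calls that were higher ran from 47.0% to 59.0% (the last without OVA replicate 2), with DESeq2 at 688 and its size factors at 559. The cause of each shift was not tested. Of 67 genes named by rule, 33 were called in all 17 alternatives that could test them, 34 lost the call in at least 1, and none changed sign. The difference between genotypes gave 0 calls in all 23 alternatives, with 496 to 1455 genes at an unadjusted p under 0.05.

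The correlations of deviations from group means between same-numbered libraries were -0.0218, -0.0249 and 0.0163, and not every OVA library correlated best with its own number. Noise at low counts pulls such correlations toward 0. They therefore cannot show whether replicate numbers pair the samples, which the labels do not say. A replicate block within genotype over all libraries gave 621 calls. Depth limits low genes, since 1 CPM is 9.73 counts in OVA replicate 3 and 42.8 to 47.0 in the others.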

Other observations

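Further gene families were picked after their values were seen, so their counts are descriptions. They stand beside 1.88% of all genes called in each direction in KO, and 5.15% called lower in WT. Of 14 subunits of the Integrator complex, which cleaves nascent transcripts of small nuclear RNAs and of paused genes, 4 were called lower in KO after 30 min of OVA and none higher, with 5 lower in WT. Ints8 stood at 41.3, 38.2 and 38.4 CPM with OVA and 52.0, 45.4 and 48.6 CPM untreated (log2 -0.30, SE 0.0549, adjusted p = 0.00117), and Ints3 at 87.3, 85.7 and 80.0 against 100, 98.1 and 101 CPM (log2 -0.24, SE 0.0416, adjusted p = 0.000828). Without OVA replicate 2 Ints8 (adjusted p = 0.0262) and Ints3 (0.00634) were called, and Ints6 (0.255, and 0.166 without replicate 3) and Ints13 (0.15) were not. At 4 h of OVA Ints8 stood at 48.8, 48.8 and 49.4 CPM.

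Cirbp, which encodes an RNA-binding protein induced by mild cold, stood at 57.2, 63.5 and 70.0 CPM with OVA and 43.0, 48.1 and 47.2 CPM untreated (log2 0.44, SE 0.0679, adjusted p = 0.000173), and rose by 0.59 (SE 0.0654) in WT. At 4 h it stood at 41.7, 42.6 and 40.6 CPM. Rbm3, the other cold-inducible gene examined, ranged from 231 to 237 against 222 to 226 CPM (log2 0.07, SE 0.0486, adjusted p = 0.531). Of 8 Notch ligands and receptors, Jag1 and Jag2 were called higher and Notch1 lower. Jag2 stood at 24.9, 30.0 and 30.4 against 19.0, 21.6 and 23.6 CPM (adjusted p = 0.00208, or 0.0558 without OVA replicate 2), and Notch1 at 110.0, 107 and 104 against 123, 124 and 131 CPM (adjusted p = 0.0143, or 0.0759 without OVA replicate 2 and 0.0681 without replicate 3). Of 87 microRNA precursors and host genes, 5 were called higher and none lower. Mir22hg, the host transcript of miR-22, stood at 14.4, 15 and 15.9 against 10.8, 9.97 and 9.44 CPM (log2 0.57, SE 0.102, adjusted p = 0.00106), and the others, Mir142b, Mir24-2, Mir339 and Mir343, were each lost without at least 1 OVA library. Mir343 stood at 0.408, 0.197 and 0.193 against 0.084, 0.0829 and 0.1 CPM, at least 2-fold above both other OVA libraries in OVA replicate 1 (adjusted p = 0.0123, or 0.302 without it). These are short loci whose reads cannot be told apart from those of their host transcripts.

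Some called genes rested on 1 library. Arg1, which encodes arginase 1, stood at 0.306, 3.35 and 0.0965 CPM with OVA and at 0.294, 0.166 and 0.180 CPM untreated, so OVA replicate 2 alone was high (153 counts, against 15 and 1 in the other OVA libraries). Its log2 fold change was 2.81 (adjusted p = 0.00602), and 0.30 (adjusted p = 0.919) without that library. Tnfsf11, the gene of RANKL, stood at 1.47, 4.92 and 1.45 against 1.22, 1.02 and 1.22 CPM, and Il11 at 0.265, 0.896 and 0.0965 against 0.147, 0.124 and 0.160 CPM, both lost without OVA replicate 2 (adjusted p = 0.808 and 0.667). These 3 were the called rises in which OVA replicate 2 stood at least 2-fold above both other OVA libraries. OVA replicate 2 also had the highest summed level of the 25 stromal markers (3490 CPM, against 2570 to 3380 in the other 5), and the part of those cells in these values was not tested.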
